A study of Mus musculus with 8 samples.

Results

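The narrow autosomal H3K27ac peaks are the peaks of 10000 bp or less on chromosomes 1 to 19 in the 4 H3K27ac Cut & Tag libraries of brown adipocytes with and without Cars2. The rule kept 412 peaks in Vec 1, 232 in Vec 2, 297 in Cre 1 and 503 in Cre 2, which is 1444 of the 3057 H3K27ac peaks and of the 5650 peaks in all 8 libraries. Cells and antibody defined the groups, and position and width chose the peaks without any comparison of Vec with Cre. The cells were immortalized brown preadipocytes (BAC) with floxed alleles of Cars2 (Cars2 flox/flox), taken from the interscapular brown fat of newborn mice and made immortal with SV40 large T antigen, which were then differentiated into adipocytes. Vec cells, given as WT in the labels, carried an empty retroviral vector, and Cre cells, given as CarS2-KO, carried Cre recombinase in that vector. Both were selected with hygromycin and were differentiated with IBMX, indomethacin, dexamethasone, insulin and T3, followed by insulin and T3. Each cell type is thus an infected pool of an immortalized line, the Vec cells also carried the floxed alleles, and Cre itself was present only in the knockout cells. The labels number 2 libraries for each cell type without saying whether they came from separate cultures, so that p-values measure only the spread between these libraries, which may be technical.

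H3K27ac, acetylation of lysine 27 of histone H3, marks active promoters and enhancers, and is written by the acetyltransferases p300 and CBP. At a promoter in use it flanks the transcription start site, while at an enhancer it lies away from gene starts. In brown adipocytes, enhancers bound by the lineage factor EBF2 carry the mark near thermogenic genes such as Ucp1. CARS2 is the mitochondrial cysteinyl-tRNA synthetase and also makes cysteine persulfide. The comparison asked whether the narrow peaks of the mark differ between cells with and without it.

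The promoters below show what narrow peaks covered. Each sequence is the 250 bases before an annotated start, 5′ to 3′ on the strand of the gene, from RefSeq on GRCm38.p6, the assembly that mm10 names. Capitals mark the GC box (GGGCGG or CCGCCC), the CCAAT box (CCAAT or ATTGG) and the core of the ETS factor motif (CCGGAA or TTCCGG), searched on both strands. Ube3a, an E3 ubiquitin ligase (chr7:59228500-59228749, plus strand), and Hdlbp, an RNA-binding protein (chr1:93478378-93478627, minus strand), had a narrow peak over this stretch in all 4 libraries.
Ube3a: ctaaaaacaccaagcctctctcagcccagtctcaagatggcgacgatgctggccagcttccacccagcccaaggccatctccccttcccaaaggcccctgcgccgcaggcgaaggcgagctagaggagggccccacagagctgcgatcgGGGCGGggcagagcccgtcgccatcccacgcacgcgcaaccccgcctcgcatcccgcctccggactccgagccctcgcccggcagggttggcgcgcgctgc
Hdlbp: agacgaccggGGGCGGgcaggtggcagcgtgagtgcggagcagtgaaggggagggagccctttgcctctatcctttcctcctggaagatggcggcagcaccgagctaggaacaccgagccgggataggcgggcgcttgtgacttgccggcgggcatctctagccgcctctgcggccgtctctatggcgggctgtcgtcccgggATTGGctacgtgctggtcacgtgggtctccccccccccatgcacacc
Ppp4r3b, a regulatory subunit of protein phosphatase 4 (chr11:29172726-29172975, plus strand), Slc22a5, the carnitine transporter of the plasma membrane (chr11:53891704-53891953, minus strand), and the histone gene H3c6 (chr13:23562386-23562635, minus strand) had narrow peaks in both Vec libraries and in neither Cre library.
Ppp4r3b: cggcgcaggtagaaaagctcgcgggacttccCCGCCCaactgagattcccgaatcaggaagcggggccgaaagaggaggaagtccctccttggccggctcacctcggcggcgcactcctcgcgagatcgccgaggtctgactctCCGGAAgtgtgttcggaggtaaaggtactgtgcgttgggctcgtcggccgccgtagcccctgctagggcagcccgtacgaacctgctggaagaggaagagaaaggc
Slc22a5: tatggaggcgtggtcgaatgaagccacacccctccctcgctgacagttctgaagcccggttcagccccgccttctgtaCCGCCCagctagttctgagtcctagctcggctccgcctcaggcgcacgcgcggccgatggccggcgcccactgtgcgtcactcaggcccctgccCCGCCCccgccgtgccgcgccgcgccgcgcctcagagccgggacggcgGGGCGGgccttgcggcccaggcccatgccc
H3c6: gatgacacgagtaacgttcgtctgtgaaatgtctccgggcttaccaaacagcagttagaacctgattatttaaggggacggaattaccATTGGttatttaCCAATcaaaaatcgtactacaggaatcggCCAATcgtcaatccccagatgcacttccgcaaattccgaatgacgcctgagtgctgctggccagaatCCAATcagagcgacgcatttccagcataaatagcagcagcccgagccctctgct
Ascc3, a helicase of the activating signal cointegrator complex (chr10:50592419-50592668, plus strand), and Rel, the NF-κB subunit c-Rel (chr11:23770970-23771219, minus strand), had them in both Cre libraries and in neither Vec library.
Ascc3: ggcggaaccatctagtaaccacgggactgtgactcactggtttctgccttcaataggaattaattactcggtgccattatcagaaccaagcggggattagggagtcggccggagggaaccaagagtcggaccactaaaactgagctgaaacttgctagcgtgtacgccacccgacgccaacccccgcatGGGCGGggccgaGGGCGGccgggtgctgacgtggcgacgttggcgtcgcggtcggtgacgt
Rel: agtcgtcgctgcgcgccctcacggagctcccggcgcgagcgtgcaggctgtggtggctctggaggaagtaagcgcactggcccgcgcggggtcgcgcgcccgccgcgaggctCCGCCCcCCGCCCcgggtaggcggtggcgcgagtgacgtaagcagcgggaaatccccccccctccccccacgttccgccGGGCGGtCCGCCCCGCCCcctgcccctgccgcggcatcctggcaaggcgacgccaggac
Cycs, cytochrome c of the respiratory chain (chr6:50566570-50566819, minus strand), was covered in Vec 1 and Cre 2, and Hadhb, the beta subunit of the mitochondrial trifunctional protein of fatty acid oxidation (chr5:30155003-30155252, plus strand), in Cre 2 alone.
Cycs: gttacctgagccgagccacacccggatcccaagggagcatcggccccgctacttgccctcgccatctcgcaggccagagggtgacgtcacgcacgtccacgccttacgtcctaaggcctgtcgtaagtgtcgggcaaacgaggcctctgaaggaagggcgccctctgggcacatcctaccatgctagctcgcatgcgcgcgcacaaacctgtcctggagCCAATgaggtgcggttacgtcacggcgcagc
Hadhb: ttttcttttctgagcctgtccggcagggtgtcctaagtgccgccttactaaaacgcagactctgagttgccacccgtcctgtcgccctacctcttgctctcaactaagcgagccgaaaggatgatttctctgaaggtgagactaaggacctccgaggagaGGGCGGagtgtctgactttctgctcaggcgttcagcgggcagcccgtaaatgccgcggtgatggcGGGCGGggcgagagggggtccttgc

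Promoters under narrow peaks were rich in CpG. Of the 20665 autosomal protein-coding genes, 16457 had at least 1 such sequence, 20063 sequences in all. The 397 sequences that overlapped a narrow peak in at least 1 library had a median of 19 CpG, from 13 at the lower to 26 at the upper quartile, against 10, from 3 to 19, in the 19666 sequences that overlapped none. The medians by library were 19 CpG in Vec 1, 17 in Vec 2, 20 in Cre 1 and 19 in Cre 2, so that they differed little between Vec and Cre. In the 14 promoters covered in all 4 libraries the median was 23. The GC box was found in 61.7% of the covered promoters and in 43.4% of all 20063. The ETS core was found in 27.7% and 15.3%, and the CCAAT box in 36.5% and 35.3%. The letters CCCNNGGG, the core of the motif of EBF factors, which reads the same on both strands, were in 15.6% of covered promoters and in 13.9% of all. In the order Vec 1, Vec 2, Cre 1 and Cre 2, the GC box was in 57.7%, 55.3%, 63.5% and 66.7%. The ETS core was in 28.4%, 27.7%, 30.2% and 30.0%, and the CCAAT box in 38.6%, 36.2%, 28.6% and 34.2%. CCCNNGGG was in 14.4%, 10.6%, 17.5% and 16.5%. Both Cre shares thus lay above both Vec shares, or below them for the CCAAT box. These differences, from 215, 47, 63 and 243 promoters, were not tested. A GC box and a CpG overlap in their letters, so that these shares are not independent of the CpG counts, and a match describes the letters only.

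Narrow peaks made up 49.3% of the H3K27ac list of Vec 1, 35.9% of that of Vec 2, 44.1% of that of Cre 1 and 55.8% of that of Cre 2, but only 0.769% to 1.04% of the length that each list covered. The lists hold no read counts, so that their depth is unknown. Background coverage, as the caller took it and recovered approximately from the deposited folds and p-values, came to 18.8 in Vec 1, 9.50 in Vec 2, 9.77 in Cre 1 and 10.1 in Cre 2. Markers of the cells gave no check of the labels: 0 of 12 brown adipocyte markers (Ucp1, Cidea and Prdm16 among them), 0 of 8 general adipocyte markers and 0 of 9 preadipocyte or fibroblast markers had a narrow peak within 3 kb of an end of the gene in any library. The same count was 0 of 7 for muscle, 0 of 4 for endothelial and 0 of 4 for macrophage markers. Of all 20665 genes, 530 (2.56%) were reached in at least 1 library, so that a count of 0 in a single list this short says little. Peaks of any width also reached 0 of these markers, beside 1309 of all genes in at least 1 library. Whether the marker lists as a set were reached less often than other genes was not tested. The nearest narrow peak to Cars2 itself lay 207 kb away in Vec 1 and in Cre 2 and 6835 kb away in Vec 2 and Cre 1, so that the peaks do not show the deletion either.

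The Cre cells did not differ from the Vec cells in the number of narrow peaks by more than the libraries of a cell type differed from each other. The highest number was in a Cre library (503, Cre 2) and the lowest in a Vec library (232, Vec 2), while Vec 1 with 412 lay above Cre 1 with 297, so that the groups overlapped. The mean was 400 ± 146 peaks for Cre and 322 ± 127 for Vec (SD, n = 2 each). On the log2 scale Cre lay 0.32 above Vec (two-sided exact permutation test, p = 0.667). This test cannot give a p-value under 0.333 with 2 libraries on each side. The direction rested on single libraries: the log2 ratio was -0.092 without Vec 2 and -0.058 without Cre 2. The length covered was 1032 kb in Vec 1, 817 kb in Vec 2, 927 kb in Cre 1 and 1080 kb in Cre 2, with a mean of 1003 ± 108 kb for Cre and 925 ± 152 kb for Vec (SD, n = 2 each). Its log2 ratio of 0.12 (two-sided exact permutation test, p = 0.667) came to -0.045 without Vec 2.

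The spread between libraries lay in the short peaks. Peaks of 1500 bp or less numbered 221 in Vec 1, 64 in Vec 2, 98 in Cre 1 and 329 in Cre 2. Vec 1 and Cre 2 were both high and Vec 2 and Cre 1 both low, so that each cell type had a library of each kind. Peaks over 1500 bp numbered 191 in Vec 1, 168 in Vec 2, 199 in Cre 1 and 174 in Cre 2, a much smaller range. For these longer peaks the log2 ratio of Cre over Vec was 0.055, and for the short ones it was 0.59 (two-sided exact permutation test, p = 0.667 for each). The split at 1500 bp was chosen after the widths were seen.

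**Figure D1:**
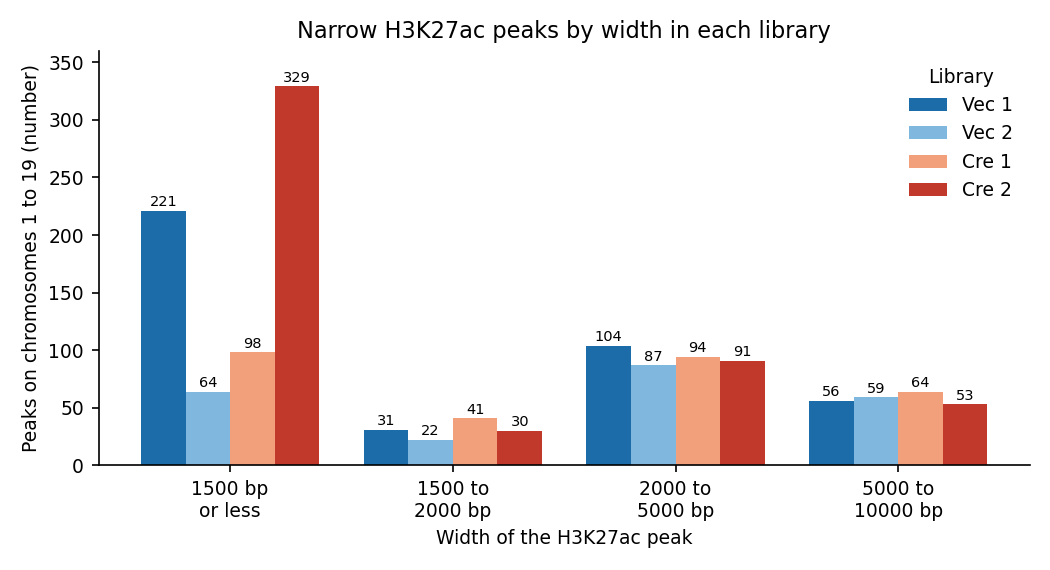
Number of narrow autosomal H3K27ac peaks (y axis) in 4 classes of width (x axis) in each of the 4 libraries, with the count printed on each bar. Peaks of 1500 bp or less run from 64 in Vec 2 to 329 in Cre 2, while the classes from 2000 to 5000 bp and from 5000 to 10000 bp hold 87 to 104 and 53 to 64 peaks.

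The median width was 1332 bp in Vec 1, 2820 bp in Vec 2, 2221 bp in Cre 1 and 1135 bp in Cre 2, with the Cre libraries at the second highest and at the lowest place. The mean of these medians was 1678 ± 768 bp for Cre and 2076 ± 1052 bp for Vec (SD, n = 2 each). Their log2 ratio was -0.29 (two-sided exact permutation test, p = 0.667), and it came to 0.25 without Vec 2 and to 0.20 without Cre 2. Among peaks over 1500 bp alone, the median width was 3493 bp in Vec 1, 4076 bp in Vec 2, 3424 bp in Cre 1 and 3486 bp in Cre 2, so that both Cre values lay below both Vec values, though that of Cre 2 only just. The log2 ratio of Cre over Vec was -0.13 (two-sided exact permutation test, p = 0.333, the smallest possible). The narrowest peak of each library was 964, 1015, 967 and 918 bp wide, in the order Vec 1, Vec 2, Cre 1 and Cre 2. Within 10% of that minimum lay 26.2% of the peaks of Vec 1, 12.5% of Vec 2, 14.1% of Cre 1 and 28.4% of Cre 2. At the other end, the widest peak that the limit kept spanned 9991 bp near Slc44a1 in Vec 1, 9807 bp in Cre 1 and 9853 bp near St3gal4 in Cre 2. The first peak beyond the limit spanned 10229 bp near Ttc39b in Vec 1, 10164 bp near Gng12 in Vec 2, 10029 bp in Cre 1 and 10060 bp near Gm7138 in Cre 2.

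Most peaks of 2000 bp or less in Vec 1 and Cre 2 lay near an annotated gene start, and most of those in Vec 2 and Cre 1 did not. Not every gene had a start listed, so that these shares cover the listed starts only. Of the peaks of 2000 bp or less, 149 of 252 in Vec 1 and 203 of 359 in Cre 2 had their centre within 3 kb of an annotated start, which is 59.1% and 56.5%. In Vec 2 it was 24 of 86 (27.9%) and in Cre 1 44 of 139 (31.7%). Nearly all of those within 3 kb were closer than 1 kb, 147 in Vec 1, 23 in Vec 2, 43 in Cre 1 and 200 in Cre 2. The median centre lay 62.5 bp downstream of the start in Vec 1, 113 bp in Vec 2, 20.2 bp in Cre 1 and 42 bp in Cre 2. Both Vec medians lay farther downstream than both Cre medians, but the quartiles overlapped widely. They ran from -71.5 to 248.5 bp in Vec 1 and from -79.75 to 263.4 bp in Vec 2. In Cre 1 they ran from -153.75 to 188 bp and in Cre 2 from -117 to 352.5 bp. The difference was not tested.

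**Figure D2:**
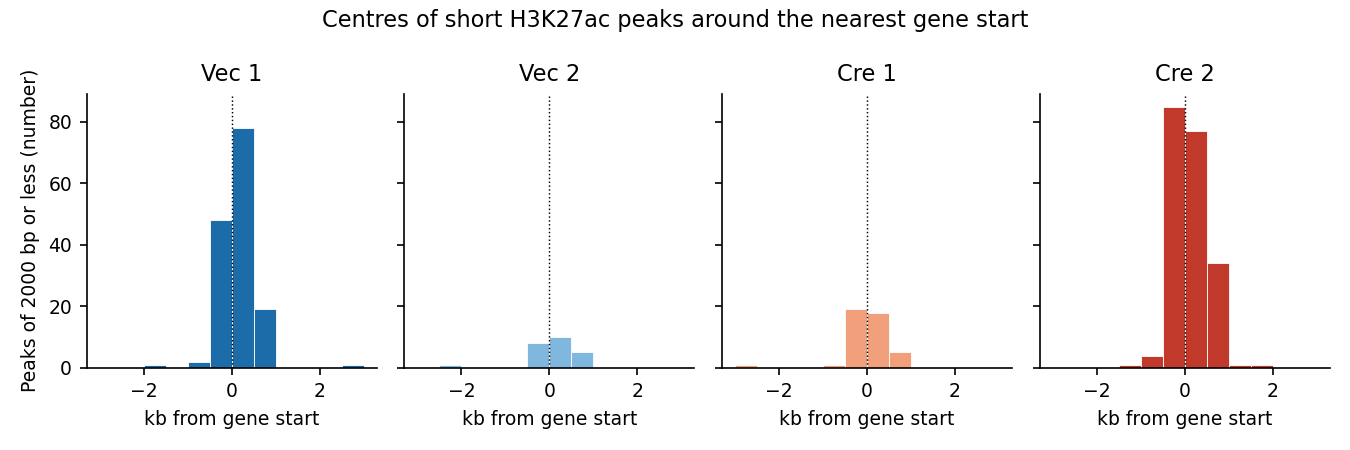
Number of H3K27ac peaks of 2000 bp or less (y axis) by the distance of their centre from the nearest annotated gene start in kb (x axis, negative upstream, bins of 500 bp), 1 panel per library. Only peaks within 3 kb of a start are drawn, 149 of 252 in Vec 1, 24 of 86 in Vec 2, 44 of 139 in Cre 1 and 203 of 359 in Cre 2, and of these 147, 23, 43 and 200 lie within 1 kb.

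Counted by genes, narrow peaks came within 3 kb of either end of 256 protein-coding genes in Vec 1, 73 in Vec 2, 101 in Cre 1 and 316 in Cre 2, or 1.24%, 0.353%, 0.489% and 1.53% of the 20665 genes. Of the genes reached that have a listed start, the peak was at the start for 194 of 220 in Vec 1, 51 of 63 in Vec 2, 66 of 80 in Cre 1 and 239 of 266 in Cre 2. The mean number of genes was 208.5 ± 152 for the Cre libraries and 164.5 ± 129 for the Vec libraries (SD, n = 2 each), or 0.39 as a log2 ratio (two-sided exact permutation test, p = 0.667). It turned to -0.52 without Vec 2 and to -0.44 without Cre 2, and for peaks over 1500 bp it was -0.10. Peaks at a gene end were 46.4% of the narrow peaks in Vec 1, 24.6% in Vec 2, 28.3% in Cre 1 and 51.1% in Cre 2. The Cre mean of 39.7% ± 16.1 lay 4.22 percentage points above the Vec mean of 35.5% ± 15.4 (SD, n = 2 each; two-sided exact permutation test, p = 0.667), and the difference was -7.18 points without Cre 2 and -6.67 without Vec 2. In every library the share was higher for short peaks. At a gene end lay 72.9%, 46.9%, 56.1% and 67.8% of the peaks of 1500 bp or less in Vec 1, Vec 2, Cre 1 and Cre 2, against 15.7%, 16.1%, 14.6% and 19.5% of those over 1500 bp.

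Some of the narrow peaks were neighbours of wide ones. A peak over 10000 bp of any of the 4 libraries lay within 50 kb of 153 narrow peaks in Vec 1, 155 in Vec 2, 173 in Cre 1 and 149 in Cre 2, numbers that hardly differed. The narrow peaks farther away numbered 259, 77, 124 and 354 in the same order and carried the spread between libraries. The part of sequencing depth or of library quality in this spread was not tested. Of the libraries rich in short peaks, Vec 1 had the highest recovered background coverage, 18.8, and Cre 2 had 10.1, beside 9.50 in Vec 2 and 9.77 in Cre 1, which had the fewest.

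Overlap between libraries was, on average, not greater within a cell type than between the cell types. A narrow peak was counted as shared if it met a narrow peak of the other library over at least 1 bp. Of the peaks of Vec 1, 18.7% were shared with Vec 2, 22.8% with Cre 1 and 36.7% with Cre 2. Of those of Vec 2, 33.2% were shared with Vec 1, 28.4% with Cre 1 and 28.0% with Cre 2. Cre 1 shared 31.6% with Vec 1, 22.6% with Vec 2 and 29.3% with Cre 2. Cre 2 shared 30.2% with Vec 1, 12.9% with Vec 2 and 17.3% with Cre 1. The mean over pairs was 24.6% within a cell type and 26.7% between cell types, a difference of -2.04 percentage points (two-sided exact permutation test over the libraries, p = 1). It was 0.308 points without Vec 1 and -7.04 without Vec 2. The Jaccard index, the shared length of 2 lists as a fraction of their joint length, was 0.112 for Vec 1 with Vec 2 and 0.0957 for Cre 1 with Cre 2. Between the cell types it was 0.147 for Vec 1 with Cre 2, 0.109 for Vec 1 with Cre 1, 0.0986 for Vec 2 with Cre 1 and 0.0896 for Vec 2 with Cre 2. By this index of narrow peaks, Vec 1 and Cre 2 overlapped more than either pair of replicates.

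When the other library's wide peaks were counted too, the shares rose unevenly. With peaks of any width, 74.1% of the narrow peaks of Vec 2 met a peak of Vec 1 and 59.1% one of Cre 2, and 61.3% of those of Cre 1 met a peak of Vec 1. Of the narrow peaks of Cre 2, 20.5% met any peak of Vec 2 and 28.0% any peak of Cre 1. Between Vec 1 and Cre 2 the shares were 46.1% and 45.5%, and between Vec 1 and Vec 2 they were 27.2% and 74.1%, so that with wide peaks the mean of both directions was no longer highest for Vec 1 with Cre 2. The mean difference of within over between was then 2.39 percentage points (two-sided exact permutation test, p = 0.667).

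**Figure D3:**
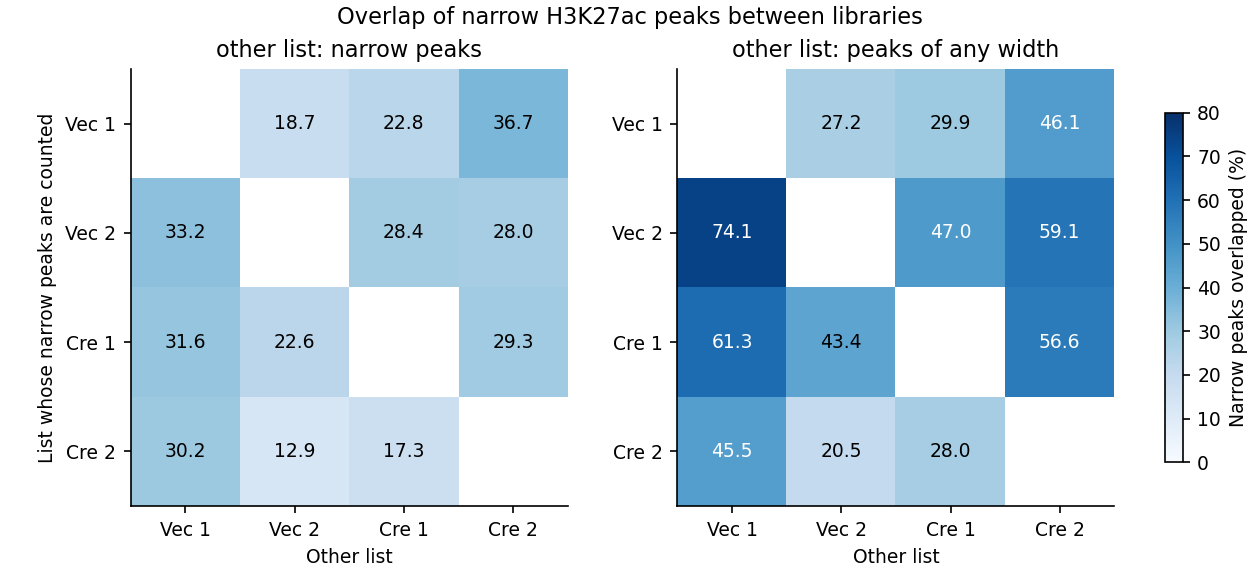
Share of the narrow H3K27ac peaks of the library in the row (%, colour and printed value) that overlap by at least 1 bp a narrow peak (left) or a peak of any width (right) of the library in the column. On the left Vec 1 with Cre 2 has the highest value, 36.7%, and Cre 2 with Vec 2 the lowest, 12.9%.

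Merging the 4 lists gave 1057 regions, of which 795 were listed in 1 library, 173 in 2, 55 in 3 and 34 in all 4. In both Vec libraries and neither Cre library there were 20 regions (1.89% of all regions), and in both Cre libraries and neither Vec library 21 (1.99%). These counts were close to those for Vec 1 with Cre 1 alone (23), Vec 2 with Cre 1 alone (19) and Vec 2 with Cre 2 alone (14), while Vec 1 with Cre 2 alone gave 76. Both counts rise by construction when a library is left out, since 1 condition fewer has to hold. Regions of Vec only numbered 138 without Vec 1, 229 without Vec 2, 30 without Cre 1 and 33 without Cre 2, and those of Cre only 49, 25, 333 and 178. The wide peaks changed the reading of some of the regions. Of the 20 Vec-only regions, 13 had no Cre peak of any width and 7 lay under a wide peak of at least 1 Cre library. Of the 21 Cre-only regions these numbers were 15 and 6. The 76 regions of Vec 1 and Cre 2 were short, with a median of 1144 bp, and 72 of them had no peak of any width in the other libraries. Of the 19 regions of Vec 2 and Cre 1, with a median of 6941 bp, 15 lay under a wide peak in Vec 1 or Cre 2. Among regions listed in a single library, 80 of 118 of Vec 2 and 84 of 157 of Cre 1 lay under a wide peak of another library, against 46 of 208 of Vec 1 and 70 of 312 of Cre 2.

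**Figure D4:**
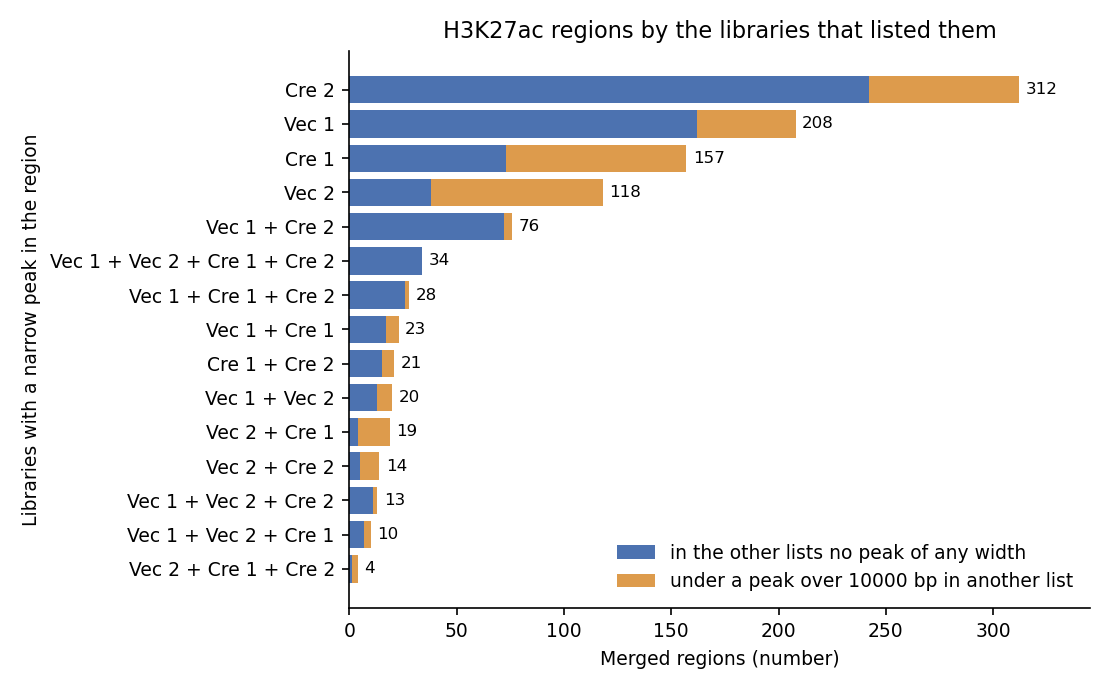
Number of merged H3K27ac regions (x axis) for each combination of libraries that listed a narrow peak (y axis), divided by whether another library had a peak over 10000 bp there. The 20 Vec-only and 21 Cre-only regions are among the rarer combinations, and the 76 regions of Vec 1 with Cre 2 are the most frequent pair.

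The 20 Vec-only regions held a few promoters, histone genes and several intergenic stretches. The strongest by rank of the authors' score, a whole number 10 times the −log10 q-value, was the promoter of Ppp4r3b printed above (chr11:29172504-29173555). Its peak was 1052 bp wide with a score of 204 in Vec 1 and 1050 bp wide with a score of 82 in Vec 2. That placed it at percentile 99.3 and 98.7 of the narrow peaks of these libraries, and no Cre library listed a peak of any width there. The promoter of Slc22a5 (chr11:53891058-53892226) had peaks of 1136 and 1092 bp with scores of 30 in Vec 1 and 20 in Vec 2, and in Cre 2 it lay within a peak of 19.8 kb. Acap2, a GTPase-activating protein of the ARF family, had peaks of 1180 and 1065 bp at its start (chr16:31199930-31201109) with scores of 21 and 12, and no Cre peak of any width. A region of the alpha-globin cluster at Hbq1b and Hba-a2 (chr11:32286685-32294696) had peaks of 8012 and 5641 bp, each with a score of 13, near the lowest score of 10 in these lists. Genes of the Gm51595 to Gm51598 group on chromosome 8, predicted genes beside each other, lay in a region that in Cre 1 was part of a peak of 376 kb.

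Histone genes on chromosome 13 gave 2 of the 20 regions and show how the limit on width acts. At H3c6 (chr13:23560811-23565757) the narrow peaks were 2435 bp wide with a score of 69 in Vec 1 and 4947 bp wide with a score of 53 in Vec 2. At H4c6 and H1f3 (chr13:23549898-23556627) they were 4476 bp with a score of 22 and 6730 bp with a score of 24. In Cre 1 and Cre 2 both places lay inside wide peaks of 209 kb and 210 kb. The mark was thus listed there in all 4 libraries, divided differently into peaks. The histone genes are near-identical in sequence, so that reads could be split between copies in the authors' alignment. Of 67 autosomal replication-dependent histone genes, narrow peaks reached 6 in Vec 1, 4 in Vec 2, 1 in Cre 1 and 1 in Cre 2, but peaks of any width reached 36, 38, 40 and 40. Of all 20665 genes, peaks of any width reached 1030 in Vec 1, 817 in Vec 2, 853 in Cre 1 and 1066 in Cre 2.

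Other Vec-only regions lay away from gene ends. A region within Cmc1, 18713 bp from the nearest end, that of Azi2 (chr9:118088512-118090497), had peaks of 1593 and 1661 bp with scores of 36 and 33. A region within S100a7l2 (chr3:91095503-91098279) had peaks of 1627 and 2777 bp with scores of 31 and 39. A region without a protein-coding gene within 100 kb (chr2:22003671-22005773) had scores of 37 and 29. None of these 3 had a Cre peak of any width. Counted by genes, 12 of 20665 genes (0.0581%) were reached in both Vec libraries and in neither Cre library. They were Acap2, Gm51595, Gm51596, Gm51597, Gm51598, H1f3, H3c6, H4c6, Hba-a2, Hbq1b, Ppp4r3b and Slc22a5. This count rests on narrow peaks only. The regions of the histone genes, of Slc22a5 and of the Gm51595 to Gm51598 group met the wide Cre peaks given above.

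Of the 21 Cre-only regions 13 were at a gene end, beside 7 of the 20 Vec-only regions and 426 of all 1057 (40.3%), a difference that was not tested. The strongest by rank was at Ifi211, of the interferon-inducible PYHIN family (chr1:173912011-173914263), with peaks of 1515 bp and a score of 101 in Cre 1 and of 2253 bp and a score of 129 in Cre 2. It lay inside wide peaks of 236 kb in Vec 1 and 142 kb in Vec 2, so that the mark was listed there in the Vec cells too. The promoter of Ascc3 (chr10:50591901-50593007) came next, with peaks of 1075 and 1102 bp and scores of 51 and 85. No Vec library had a peak of any width there. The same was true of Rel (chr11:23770224-23771290), with peaks of 1000 and 1044 bp and scores of 26 and 76. It also held for the promoter shared by Cdc26, a subunit of the anaphase-promoting complex, and Prpf4, a spliceosome factor (chr4:62408030-62409157), with peaks of 1054 and 1098 bp and scores of 45 and 30. Uspl1, a SUMO protease (chr5:149183849-149185014), had peaks of 1006 and 1166 bp with scores of 28 and 47 and no Vec peak of any width. Kpna4, an importin (chr3:69126016-69127426), had peaks of 1062 and 1295 bp with scores of 34 and 32, and Trpm7, a channel kinase (chr2:126875629-126876627), had peaks of 999 and 945 bp with scores of 19 and 27.

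Further Cre-only regions lay inside a gene or inside a wide Vec peak. A region within Bach2, a transcriptional repressor of the bZIP family (chr4:32250065-32251241), lay 11651 bp from the nearest gene end, with peaks of 1068 and 1177 bp and scores of 44 and 61. At Ugt1a6a, a glucuronosyltransferase (chr1:88133732-88135404), the peaks were 1673 and 1050 bp with scores of 32 and 21, inside wide peaks of 32.2 kb in Vec 1 and 31.9 kb in Vec 2. At Dop1b (chr16:93710991-93712319) they were 1329 and 1235 bp with scores of 24 and 26, inside a wide peak of 153 kb in Vec 2. Counted by genes, 13 of 20665 (0.0629%) were reached in both Cre libraries and in neither Vec library, Ascc3, Cd59a, Cdc26, Dop1b, Hamp, Ifi211, Kpna4, Prpf4, Rasa1, Rel, Trpm7, Ugt1a6a and Uspl1. This count rests on narrow peaks only. The region at Hamp met wide peaks of 19.8 kb in Vec 1 and 19.6 kb in Vec 2, and those at Ifi211, Ugt1a6a and Dop1b met the wide Vec peaks given above. For comparison, 57 genes were reached in Vec 1 and Cre 2 only. Presence in a list is not a level: a region is missing where the signal was under the caller's threshold, and the smallest −log10 q-value listed was 1.07 in Vec 1 and Cre 1, 1.095 in Vec 2 and 1.04 in Cre 2.

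The 34 regions with a narrow peak in all 4 libraries gave the comparison of width and rank within the same places. The widths of both Cre peaks exceeded those of both Vec peaks in 1 region (2.94%) and fell below them in 5 (14.7%), while in the other 28 the cell types overlapped. Of the 6 arrangements of the 4 libraries, 1 places both Cre values above both Vec values and 1 below, so that such separation arises without any difference. The counts were not tested. The median log2 ratio of Cre over Vec width over the 34 regions was -0.01. The 1 region wider in Cre was 54168 bp from Slc44a1, a choline transporter (chr4:53384017-53386218), with 1647 and 1288 bp in Vec 1 and Vec 2 and 1883 and 2202 bp in Cre 1 and Cre 2. Narrower in Cre were the peaks at Casp8, an initiator caspase (chr1:58795012-58796251), at 1077 and 1189 bp in Vec and 987 and 1030 bp in Cre, and at Rnf4, a ubiquitin ligase of SUMO-modified proteins (chr5:34335795-34337061), at 1109 and 1147 bp against 1036 and 976 bp. At Pde12, a phosphodiesterase of mitochondrial RNA (chr14:26668602-26669909), they were 1209 and 1046 bp in Vec and 1035 bp in each Cre library. The others were a region within Wdfy1 (chr1:79718508-79728034), at 9527 and 8772 bp against 7430 and 8303 bp, and a region without a gene on chromosome 2 (chr2:98662610-98667016), at 4399 and 4400 bp against 4364 and 4160 bp. The nearest widths of the cell types were almost equal at Pde12, 1046 and 1035 bp, and at the region on chromosome 2, 4399 and 4364 bp.

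**Figure D5:**
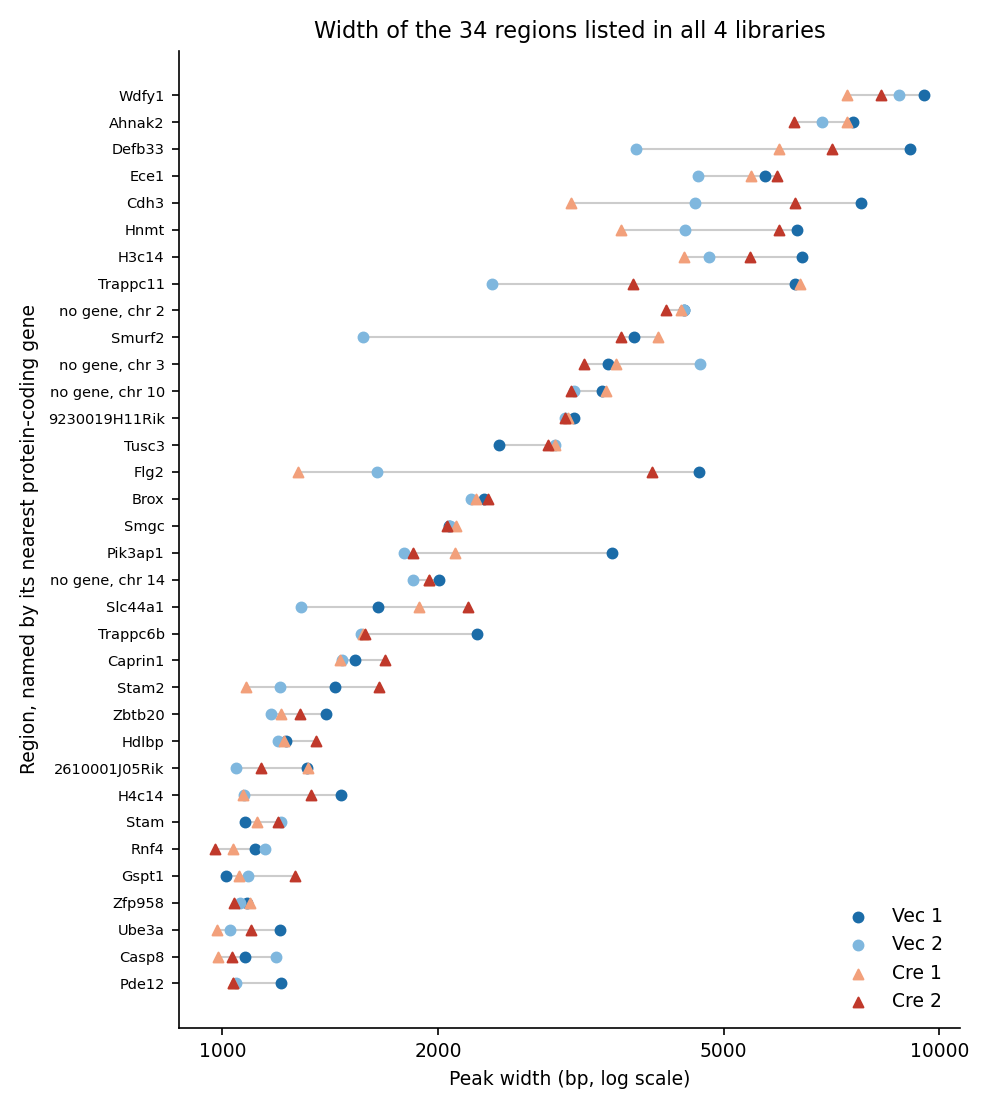
Width in bp (x axis, log scale) of the narrow H3K27ac peak in each library for the 34 regions that all 4 libraries listed (y axis, by nearest protein-coding gene, ordered by median width), with circles for Vec, triangles for Cre and a line from the narrowest to the widest. In 28 of the 34 regions the Vec and Cre widths overlap, and 11 of the regions are at gene ends.

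Ranks gave a similar picture. The percentile of a peak's score among the narrow peaks of its own library was higher in both Cre than in both Vec libraries in 1 region (2.94%) and lower in 8 (23.5%), with overlap in 25. The limit given for the widths holds for these counts too, and they were not tested. The single region with a higher rank was 7279 bp from Ece1, endothelin-converting enzyme (chr4:137972509-137978437), at percentiles 82.8 and 82.8 in Vec and 86.2 and 85.2 in Cre. The region 52189 bp from Hnmt, histamine N-methyltransferase (chr2:23944388-23950721), had the largest drop, from 78.4 and 84.9 in Vec to 65.7 and 33.2 in Cre. Near Cdh3, P-cadherin (chr8:106481894-106490008), the percentiles were 67.2 and 76.9 in Vec and 54.7 and 38.0 in Cre. At Ube3a (chr7:59228285-59229583), whose promoter is printed above, they were 95.6 and 94.0 in Vec and 87.2 and 93.4 in Cre. Some of the lower ranks were near ties: the nearest percentiles were 95.7 in Vec and 95.5 in Cre at Stam2, and 87.9 and 87.6 near Smgc. Percentiles depend on how many peaks of low score a library lists, and they were lower in Cre 2, with the most peaks, at a median of 76.3 over the 34 regions against 82.6 to 83.8 in the other libraries.

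The shared regions with the best ranks included several far from genes. The region without a gene on chromosome 2 named above had the highest score of the narrow peaks in every library, 1271 in Vec 1, 747 in Vec 2, 1133 in Cre 1 and 1581 in Cre 2, and a region without a gene on chromosome 14 (chr14:19415768-19417814) had scores of 336, 276, 316 and 270. Neither has a protein-coding gene within 100 kb, and no exclusion list of repeat-rich regions was applied here. Next came regions near Zfp958 (chr8:4677586-4678696) and 9230019H11Rik (chr10:3109902-3112998), and then those of Wdfy1, Stam2, Casp8, Hdlbp, Ube3a and Smgc. At the promoter shared by Hdlbp and Septin2 (chr1:93478032-93479388) the peaks were 1228, 1196, 1218 and 1352 bp wide, with scores of 79, 56, 46 and 80, in the order Vec 1, Vec 2, Cre 1 and Cre 2. By genes, 14 were reached in all 4 libraries, among them Caprin1, an RNA-binding protein of stress granules, Gspt1, a translation termination factor, and the histone gene H4c14.

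Of 56 thermogenesis genes, 33 genes of cysteine and sulfur metabolism, 43 of glycolysis and central carbon metabolism and 33 of histone acetylation and bromodomain proteins, 0 were reached in any library. All genes together gave 530 of 20665 (2.56%) in at least 1 library. At that share each list alone would hold few members, so that its own count of 0 says little. Peaks of any width also reached 0 genes of these lists, beside 1309 of all 20665 genes in at least 1 library. Whether the lists as a set were reached less often than other genes was not tested. None of 12 genes that the study examined (Adrb1, Cars2, Cidea, Cidec, Dio2, Ebf2, Elovl3, Elovl6, Pparg, Ppargc1a, Prdm16 and Ucp1) had a narrow peak within 50 kb, and the nearest was 117 kb from Cidec in Cre 2. A change of the mark at these genes was therefore not detectable from the narrow peaks. The share of all genes with a narrow peak within 50 kb was not computed, so that their absence here cannot be called unusual.

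Some lipid and respiratory genes were reached, none of them in both libraries of a cell type. Of 70 lipid genes, 3 were reached (4.29%, beside 2.56% of all genes), each in Cre 2 alone. Hadha and Hadhb, the subunits of the trifunctional protein, share a promoter, and its peak (chr5:30154620-30155655) was 1036 bp wide with a score of 65. At Etfdh, which passes electrons from fatty acid oxidation to ubiquinone, the peak was 931 bp wide with a score of 28. Of 72 genes of oxidative phosphorylation, 4 were reached (5.56%). Cycs had peaks of 975 bp in Vec 1 and 1049 bp in Cre 2, with scores of 68 and 38. Ndufb3 of complex I had a peak with a score of 18, and Atp5l of the ATP synthase had a peak with a score of 105, both in Vec 1 alone. Atp5j, also of the ATP synthase, had a peak with a score of 26 in Cre 2 alone.

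Housekeeping and stress genes were reached in different libraries, most of them in Vec 1 or Cre 2, and their shares stand beside 2.56% of all genes. Of 28 genes in the list of translation factors, which also holds the nucleolar protein nucleolin, 3 were reached (10.7%): Eif3b with a score of 129 and Eif4e with a score of 13 in Vec 1, and Ncl, which encodes nucleolin, with scores of 56 in Vec 1 and 47 in Cre 2. Of 34 splicing factors, 4 were reached (11.8%), Hnrnpa0 in Vec 1, Hnrnpk in Vec 1 and Cre 2, and Srsf4 and U2af2 in Cre 2. Of 75 ribosomal protein genes (4%), Rpl31 and Rps3a1 were reached in Cre 2 and Rps27a in Vec 2. Of 55 actin cytoskeleton genes (3.64%), Wasf1 and Myl12a were reached in Cre 2. Of 45 immediate early and stress genes, 4 were reached (8.89%). Hspa1a, an inducible heat shock protein, was reached in Vec 1, Cre 1 and Cre 2, with scores of 28, 11 and 12, and its neighbour Hspa1b in Cre 1 with a score of 15. These are near-identical copies whose reads the authors' alignment could split, so that their counts are uncertain. Cdkn1a, the cell cycle inhibitor p21, had a peak beyond an end of the gene in Vec 2 (3908 bp, score 17) and in Cre 2 (945 bp, score 12), and Gadd45a had a peak with a score of 21 in Cre 2. No member of the lists other than histone genes was reached in both libraries of 1 cell type and in neither of the other.

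The share of narrow H3K27ac peaks that met EBF2 peaks did not differ between the cell types beyond the spread of the libraries. EBF2 peaks came from the EBF2 Cut & Tag libraries of the same cells, a readout that the rule did not use. For the shares, EBF2 peaks of any width counted, so that a narrow H3K27ac peak could lie inside a wide EBF2 peak. The share of narrow H3K27ac peaks that overlapped an EBF2 peak of either library of the same cells was 15.05% in Vec 1, 34.5% in Vec 2, 34.7% in Cre 1 and 20.9% in Cre 2. The mean was 27.8% ± 9.76 for Cre and 24.8% ± 13.7 for Vec (SD, n = 2 each), a difference of 3.01 percentage points (two-sided exact permutation test, p = 0.667) that came to -6.71 without Vec 1 and to -3.89 without Cre 1. It was 12.7 without Vec 2 and 9.91 without Cre 2. With an overlap of 50% of both peaks required, the difference over the 4 libraries was 0.555 points. Width again separated the peaks: those over 1500 bp met EBF2 in 27.7%, 39.9%, 41.2% and 52.3% of cases in Vec 1, Vec 2, Cre 1 and Cre 2, and those of 1500 bp or less in 4.07%, 20.3%, 21.4% and 4.26%. A longer peak meets another over 1 bp more easily, so that part of this gap is built into the measure. For the longer peaks the share was higher in both Cre than in both Vec libraries, by 12.9 percentage points (two-sided exact permutation test, p = 0.333, the smallest possible). The Vec and Cre shares rest on different EBF2 lists, which were not alike. The EBF2 list of Vec 2 met 5.83% of all narrow peaks of Vec 1, 9.48% of Vec 2, 3.37% of Cre 1 and 2.78% of Cre 2, and the other EBF2 lists met 13.7% to 34.9%. The narrow peaks of Vec 1 met the EBF2 list of Cre 1 more often (18.9%) than those of Vec 1 (13.8%) and Vec 2, and so did those of Vec 2 (34.9%, against 32.3% and 9.48%). A difference in the H3K27ac peaks and one in the EBF2 lists therefore cannot be told apart here. Of the 34 regions in all 4 libraries, 21 (61.8%) overlapped an EBF2 peak of any library, as did 13 of the 19 regions of Vec 2 and Cre 1 (68.4%). Of the 76 regions of Vec 1 and Cre 2 it was 6 (7.89%), of the Vec-only regions 5 of 20, of the Cre-only regions 8 of 21, and of all regions 312 of 1057 (29.5%). The peak names of EBF2 Cre 1 carry the name of another knockout model, and its label, which gives Cre cells of the BAC line, was followed.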

How the data were processed

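Each of the 4 H3K27ac and 4 EBF2 libraries came with 1 peak list, called by the authors on that library alone. Per the submitters' processing notes, bcl2fastq 2.17, Trimmomatic 0.33, HISAT2 2.2.1, MACS2 2.2.7 and mm10 were used; the caller's threshold, control and treatment of duplicate reads are not given in the sources used here. The deposited positions were used as given, in broad layout for H3K27ac. The deposited score is 10 times the −log10 q-value. The deposited fold, a ratio to the caller's background, and both −log10 columns (p and q) are the authors' means along each broad peak. Scores were compared within a list only, and wide peaks were left out by the limit of 10000 bp.

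Positions were converted to 1-based coordinates. Numbers, widths, genes with a peak within 3000 bp of either end, overlaps of at least 1 bp, and regions merged over the 4 lists were computed with Python 3.11.15, pandas 2.3.3, numpy 2.4.6 and scipy 1.17.1, drawn with matplotlib 3.10.9 and tested on simulated regions. Genes and promoters came from RefSeq (GRCm38.p6). The background coverage is the 10th percentile over peaks with a −log10 p-value under 15. Vec and Cre were set against each other by exact permutation over the 6 arrangements of libraries, on log2 values or, for shares, on percent. Regions named are up to 12 per direction by mean rank, the 10 best shared regions, up to 5 per direction of width and of rank, members of 18 gene lists that were reached and 12 genes of the study. Acap2, the globin genes and the complete gene sets in Vec or Cre only were named after their values were seen. Members and lists were chosen with earlier results of these data known. Same-numbered libraries did not deviate together (correlation -0.169 over 20665 genes and -0.0443 over 1057 regions). Alternatives were a stricter score, other width limits, chromosome X, distance from wide peaks, equal numbers, merging of near peaks, other gene windows and sets, 50% overlap, peaks of any width, either library, each library left out, and replicate blocks. A split at 1500 bp and the crossed block were added after seeing the data. The widest narrow peak of Vec 2 is not reported here.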

Additional observations from a re-analysis of the deposited data

Results flagged for a closer look

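Chromosome X lies outside the autosomal peaks and held narrow H3K27ac peaks as well. There were 18 in Vec 1, 24 in Vec 2, 20 in Cre 1 and 37 in Cre 2. They drew attention because they were signal outside the autosomes, to which the main comparisons were limited, and they entered only an alternative. Cre 2 had the most, as it did on the autosomes, while Vec 1 had the fewest.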

How the results depend on the processing

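No comparison of Vec with Cre passed a threshold under any alternative, and with 2 libraries against 2 the exact permutation test cannot go below 0.333. The number and median width of narrow peaks and the share at a gene end kept their direction in all alternatives that used the 4 libraries, at log2 ratios of 0.055 to 0.60 and -0.29 to -0.031 and at 1.17 to 6.23 percentage points. The length turned to -0.24 with an equal number of the best 232 peaks, under which the number is equal by construction and was not run, and genes reached turned to -0.10 with peaks over 1500 bp. The difference of overlap turned to 3.002 points at a score of at least 19, 0.371 with a limit of 2000 bp, 1.72 with peaks more than 50 kb from a wide peak and 2.39 with peaks of any width. The EBF2 share turned to -3.44 at the stricter score, -6.26 far from wide peaks and -1.94 with equal numbers. The causes were not tested.

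Regions in Vec only numbered 12 at the stricter score, 11 with 2000 bp, 10 far from wide peaks, 39 with peaks of any width, 19 with equal numbers, 346 from either library, 6 with peaks of 1500 bp or less and 15 with longer ones. Those in Cre only numbered 13, 13 and 12 under the first 3, 29 with peaks of any width, 11 with equal numbers, 490 from either library, 10 with peaks of 1500 bp or less and 8 with longer ones. Shared regions with separate widths numbered 3 with 2000 bp, and with separate percentiles 3 at the stricter score and 4 with 2000 bp.

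Leaving out each library in turn moved the log2 ratio of number from -0.092 to 0.74, of length from -0.045 to 0.29, of median width from -0.83 to 0.25 and of genes from -0.52 to 1.29. The share at a gene end moved from -7.18 to 15.6 points, the overlap from -7.04 to 0.308 and the EBF2 share from -6.71 to 12.7. Regions in Vec only ran from 30 to 229 and in Cre only from 25 to 333, where 1 condition fewer had to hold. Shared regions with separate widths ran from 22 to 39 and with separate percentiles from 22 to 43, where the lone library leaves fewer values to separate.

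The replicate block left the differences as they were by construction, at 0.32 for number, 0.12 for length, -0.29 for median width, 0.39 for genes, 4.22 for the share at a gene end and 3.01 for the EBF2 share, with p = 1 in each (exact test over 4 arrangements, smallest p 0.5). The labels share numbers only, so that the pairing is a number and not a design. Crossing the pairs gave 0 calls, which the smallest p of 0.5 had fixed in advance. Depth is unknown, so that a missing peak sets no upper limit on the mark.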
